A study of Oncorhynchus mykiss with 28 samples.

Results

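Of 28 arrays of rainbow trout eggs, 5 came from females whose fertilized eggs mostly reached the eyed stage although fewer than 50% of the eggs gave a normal alevin. These females are called late loss females, and their eggs were compared with the eggs of 9 good females, so that 14 of 28 arrays were used. Late loss females had 75% or more eyed embryos and under 50% normal alevins at yolk-sac resorption (YSR), and good females had 80% or more normal alevins. The members were chosen by the egg fate recorded in the sample descriptions, not by any array value. The study measured the mRNA content of unfertilized eggs of an autumn-spawning rainbow trout strain (Oncorhynchus mykiss) with radioactively labelled nylon cDNA arrays. Every array held the eggs of a single female. The labels give N-1 and PM-4, neither of them among the 14 arrays, the same female number and year, so these may be the same animal. Each array held RNA pooled from many eggs of 1 female, so a lower signal in every egg and a very low signal in some eggs cannot be told apart. Some females ovulated after injection of a gonadotropin-releasing hormone analogue (hormonal induction, HI), and others after a changed photoperiod that advanced spawning (photoperiodic manipulation, PM). The late loss females were HI-3, HI-4, HI-5, PM-8 and PM-9, and the good females were HI-7 to HI-11 and PM-11 to PM-14. Naturally ovulating females (N, 4 arrays) had no late loss female among them and entered as a reference only. HI and PM eggs were collected in different years, so treatment and year cannot be told apart. Each female is 1 biological sample. Semen for fertilization was pooled from males of the same group afresh at each collection day, so the pool could differ between females of a group.

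A fish egg carries maternal mRNAs and proteins that run the first divisions, before the embryo transcribes its own genome. Yolk lipids and proteins, taken up from the mother's blood while the oocyte grows, feed the embryo and the alevin until the yolk sac is resorbed. The eyed stage, at which the pigmented eyes show through the egg shell, is the usual early checkpoint of survival in trout, and hatching and yolk-sac resorption follow it. Loss after the eyed stage therefore falls long after the embryo has switched to its own transcripts.

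The late loss females lost their offspring in different ways. Eyed embryos were scored at 190 degree-days and normal alevins at 550 degree-days. HI-3 had 89% eyed embryos, 28.5% normal alevins and 55.6% malformations. HI-4 had 88%, 35.6% and 40.9% in the same order. In both, malformed alevins made up a large share of the loss. HI-5 had 77% eyed embryos, 39.8% normal alevins and 3.2% malformations. PM-8 had 98%, 40.3% and 3.5%, and PM-9 had 80%, 43.9% and 14.3%. With malformations read as a share of the alevins alive, 64.2% of the eggs of HI-3 and 60.2% of those of HI-4 gave a living alevin, against 41.1% in HI-5, 41.8% in PM-8 and 51.2% in PM-9. In the last 3 females death after the eyed stage accounted for most of the loss, and it was deepest in PM-8, at 56.2 percentage points. Such death was also large in HI-4, at 27.8 points against 24.6 points of malformed alevins. In HI-3 it came to 24.8 points against 35.7. In good females eyed embryos ranged from 87% to 100%, with a median of 93%, normal alevins from 82.5% to 95.4% and malformations from 0% to 8.1%. PM-13 was recorded with 89% eyed embryos and 92.9% normal alevins, although a normal alevin must first be an eyed embryo.

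**Figure D1:**
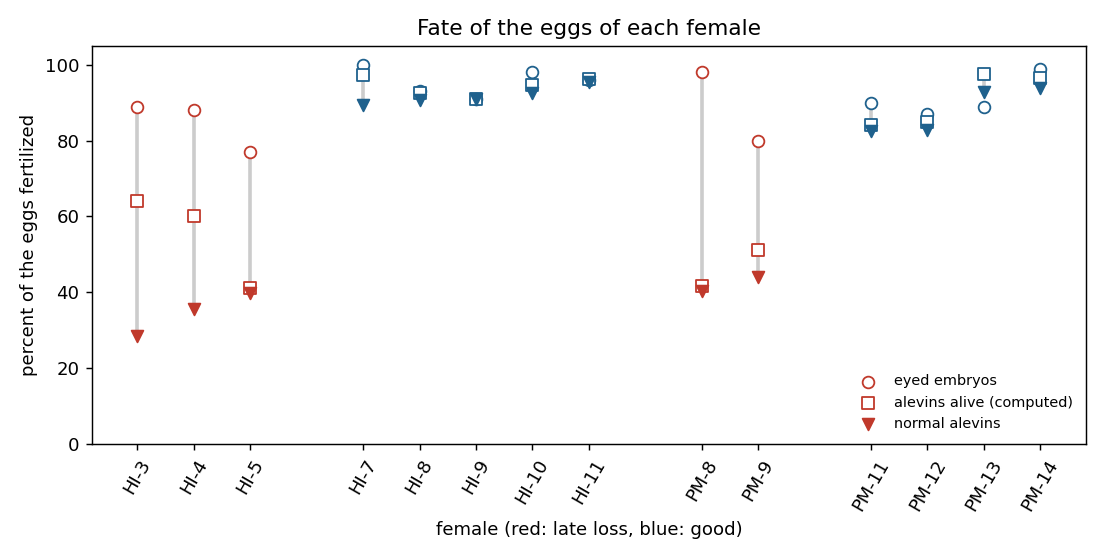
Percent of fertilized eggs (vertical axis) that gave eyed embryos (circles), living alevins (squares, computed from the normal and malformed shares) and normal alevins (triangles) in each late loss female (red) and good female (blue). Late loss females fell from 77% to 98% eyed embryos to 28.5% to 43.9% normal alevins.

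Members close to the limits were few. HI-5, with 77% eyed embryos, lay just inside the late loss class, and PM-7 and PM-6, with 62% and 57% eyed embryos and 37.5% and 36.4% normal alevins, lay outside it. PM-10 had 79% eyed embryos and 71.5% normal alevins and belonged to neither class, and PM-11 was the lowest good female.

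Most arrays of late loss eggs lay no further from the good mean of their ovulation group than good arrays did. A clone value is its signal divided by the median of its array, and here it is given as log2, so that 0 is the median clone. Between 8229 and 8655 clones per array had a signal above 0. The median absolute deviation of an array from the mean of the good arrays of its ovulation group ran from 0.134 in HI-5 to 0.214 in HI-4 among late loss eggs, and from 0.140 to 0.194 among good eggs, each good array being set against the other good arrays. By this measure HI-4 was the only late loss array beyond the good arrays of its group, the highest of which reached 0.177. By the correlation with the good mean HI-4 (0.966) lay below its good arrays, the lowest at 0.968, and PM-9 (0.9633) below its own, the lowest at 0.9659. HI-5 lay nearer the good mean than any good HI array by both measures. A good array was set against a mean of fewer arrays than a late loss array was, so these ranges are not fully alike. The middle spread of log2 signal on an array, its interquartile range, was 1.52 ± 0.0582 (SD, n = 5) in late loss eggs and 1.49 ± 0.0863 (SD, n = 9) in good eggs. This difference of 0.0323 did not pass a two-sided exact permutation test within ovulation groups (p = 0.417, smallest possible p = 0.00119 over 840 arrangements).

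No clone passed the test between late loss and good eggs. Of 8308 clones with enough values, 0 (0%) had a limma adjusted p under 0.05 with ovulation group as a covariate, and the lowest adjusted p was 0.999. At an unadjusted p under 0.05 there were 218 clones (2.62%), 74 higher (0.891%) and 144 lower (1.73%) in late loss eggs, where 415 would be expected if no clone differed. Those 218 clones leaned to the lower side, whereas over all 8308 clones the sides were even, with 49.9% lower in late loss eggs. Differences ran from -0.73 to 0.68 on the log2 scale, 35 clones exceeded 0.5 in size and 0 exceeded 1. The 95% confidence interval of a clone reached 0.261 to either side of its difference in the median. A change under that size was thus generally not detectable with these arrays even before adjustment. The adjusted test needs a larger change, and none of the 35 clones beyond 0.5 passed it. The count at the unadjusted limit was 394 without HI-4, 271 without HI-3 and 581 without both, with 0 clones passing the adjusted limma test in each case.

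Within each ovulation group the result was the same by the adjusted test. Among HI eggs (3 late loss against 5 good females) 0 of 8308 clones (0%) passed, with 248 (2.99%) at an unadjusted limma p under 0.05, a count of 135 without HI-4 and 443 without HI-5. Among PM eggs (2 against 4) 0 clones (0%) passed and 716 (8.62%) reached the unadjusted limit, with a lowest adjusted p of 0.108. The PM count depended on single females: 4 clones passed without PM-8 and 5 without PM-9, each time leaving 1 late loss PM female that is assumed to vary like the others.

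**Figure D2:**
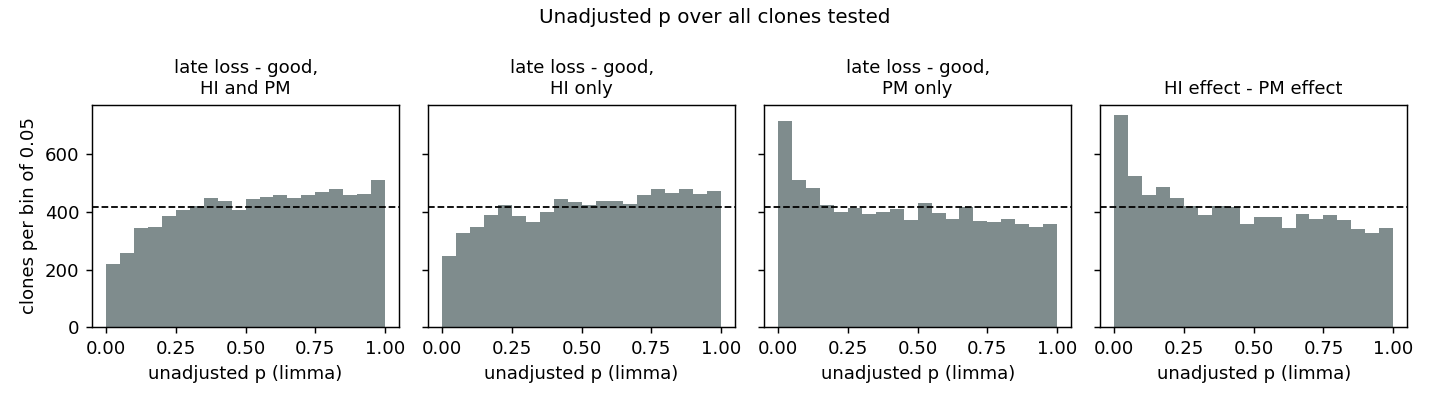
Number of clones (vertical axis) per bin of unadjusted limma p (horizontal axis) for late loss minus good eggs in HI and PM together, in HI, in PM, and for the difference between the HI and PM effects. The dashed line is the number per bin if no clone differed. The joint panel holds 218 clones in the lowest bin and the HI panel 248, below the line, whereas the PM panel holds 716 and the last panel 735.

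The files give no gene names, and most clones are known here by identifier alone. The clone with the lowest p among those lower in late loss eggs was 1RT71P21_B_H11. Its log2 signal was -0.83 in HI-3, -0.50 in HI-4 and -0.80 in HI-5, against -0.58 to -0.17 in good HI eggs, and -0.92 and -0.998 in PM-8 and PM-9, against -0.29 to -0.02 in good PM eggs. HI-4 lay within the good HI range while both PM values lay below every good PM egg, as in 8.93% of all clones. Its difference was -0.49 (SE 0.116, unadjusted p = 3.81e-04, adjusted p = 0.9995 by limma). A second clone, 1RT136O02_C_H01, had the widest difference of all, -0.73 (SE 0.178). Its mean signal was 1.54 ± 0.317 (SD, n = 5) in late loss eggs and 2.26 ± 0.394 (SD, n = 9) in good eggs, and HI-7, a good female, was as low as 1.57. In the other direction 1RT163G23_A_D12 and tcay0027.l.15 were 0.35 and 0.36 higher in late loss eggs. Both were among the 5 clones (0.0602%) whose late loss values lay above all good values within HI and also within PM. Another 2 clones (0.0241%) lay below in both groups. The clones described here were picked from these same values, by lowest p among clones with the same sign within HI and PM. Their separation is therefore no further support.

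Genes are named for 49 clones, all from the study's own lists. Of these, 20 came from transcripts that differed by ovulation treatment and 29 from transcripts putatively linked to egg quality. The study named each clone by its best match in a protein database. Names thus rest on sequence similarity, and the roles given below are those of the named gene, not tested for the trout clone. Both lists were drawn by the study from these arrays, so the direction of a list is no independent evidence. The paper treats the quality list as candidates only, because its false discovery rate was high. By real-time PCR the paper found a correlation with egg quality for PHB2 alone among the quality genes it tested. None of the 49 passed the test (0%), and each had a limma adjusted p of 0.9995. In late loss eggs 34 were lower and 15 higher, with a median difference of -0.080, against 49.9% lower over all clones. Of the 29 quality clones 27 were lower (median -0.15), the exceptions being GMCL1 and PHB2, and of the 20 ovulation clones 13 were higher (median 0.0165). At an unadjusted p under 0.05, APOB, DUSP24, PYC and CASZ1 had lower and DAB2 had a higher estimate, where 1.73% and 0.891% of all clones did. Over the alternatives that included the clone, and with single females left out, the unadjusted limma p stayed at or under 0.0485 for APOB. It stayed at or under 0.0428 for DUSP24 and reached 0.19 for CASZ1. It reached 0.456 for PYC and 0.29 for DAB2 where values of 0 were kept with a pseudocount. HI-4 and PM-14 had no value above 0 in PYC, nor HI-3 in DAB2. Whether a 0 marks little mRNA or a failed spot is not known here. APOB and DUSP24 had values on all 14 arrays, so that alternative is no like comparison between these genes.

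**Figure D3:**
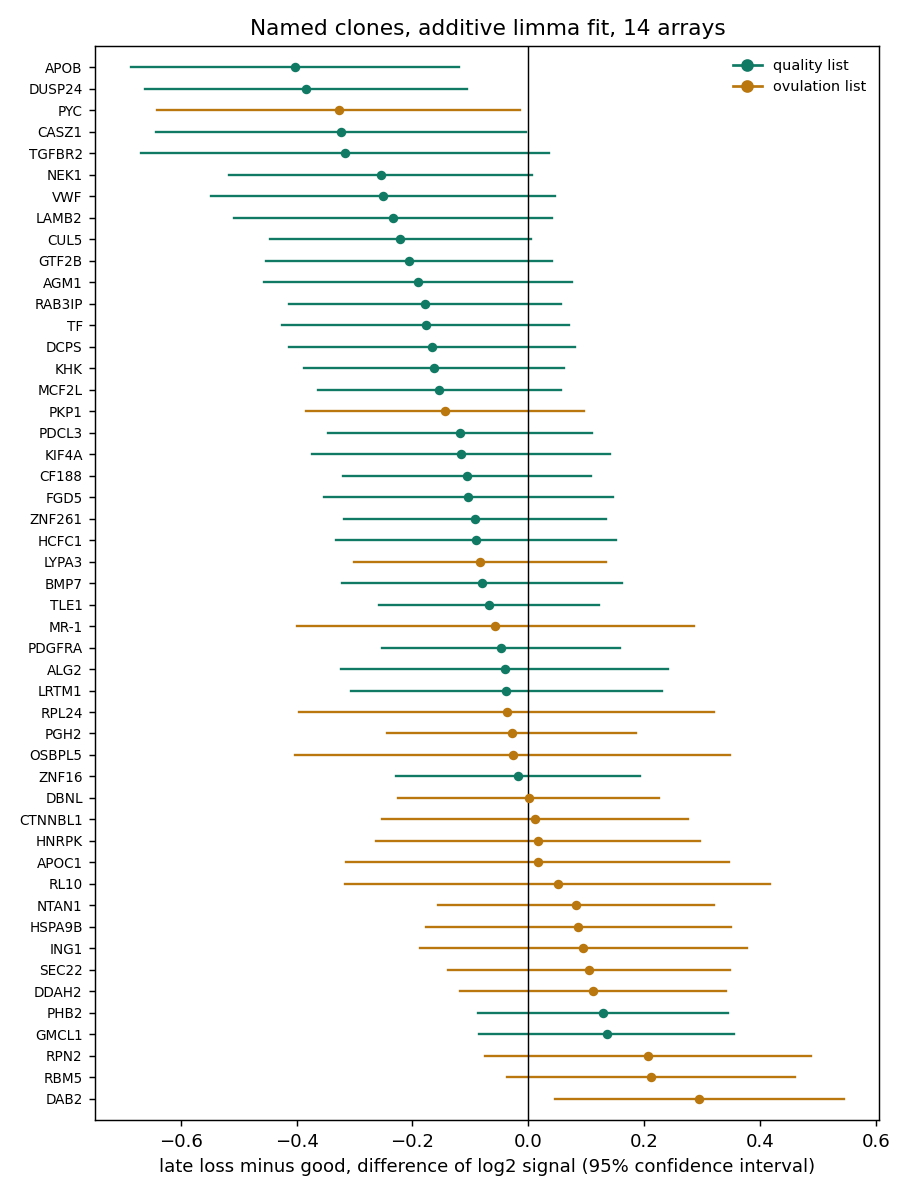
Late loss minus good eggs, as a difference of log2 signal (horizontal axis; points, limma estimate with ovulation group as covariate; lines, 95% confidence interval), for the 49 named clones, coloured by the list of the study they come from. The estimates run from -0.40 for APOB to 0.30 for DAB2, and the intervals of 5 clones leave out 0 before adjustment, as those of 2.62% of all clones do.

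Among lipid transport genes the lowest p belonged to APOB, the large structural protein of the lipoproteins that carry lipid in blood and into yolk. Its log2 signal was -0.31 in HI-3, 0.07 in HI-4 and 0.12 in HI-5, and 0.05, -0.15, 0.33, 0.13 and 0.14 in good HI eggs from HI-7 to HI-11. It was -0.18 in PM-8 and -0.42 in PM-9, and 0.40, 0.20, 0.48 and 0.78 in good PM eggs from PM-11 to PM-14. Within HI the groups overlapped, and within PM both late loss values lay below every good value, as they did for 742 clones (8.93%). The joint difference was -0.40 (95% interval -0.69 to -0.12, unadjusted p = 0.00756 by limma), or 1.32-fold lower. It was -0.14 within HI and -0.77 within PM (unadjusted p = 5.33e-04, adjusted p = 0.158 by limma), and the difference between these effects, 0.63, had an unadjusted p of 0.0182 and did not pass after adjustment. Naturally ovulated eggs had 0.24 ± 0.212 (SD, n = 4), near the good eggs at 0.26 ± 0.271 (SD, n = 9). All 5 lipid genes had estimates below 0 within PM, from -0.77 for APOB to -0.042 for APOC1, where 50.1% of all clones did. Within HI 2 of 5 did, against 51.4% of all clones, and none passed the test in either group. APOC1, a small exchangeable apolipoprotein, differed by 0.017 (95% interval -0.31 to 0.35), PGH2, a prostaglandin-forming cyclooxygenase, by -0.029, and OSBPL5, an oxysterol-binding protein, by -0.027, and the sign of these 3 changed when single females were left out. LYPA3, a lysosomal phospholipase, differed by -0.083 jointly and by -0.27 within PM. There both late loss values lay below the good ones, as in 8.93% of all clones. APOC1 varied widely among late loss eggs, from -1.001 in PM-9 to 0.38 in HI-3, while N eggs stood at -1.22 ± 0.286 (SD, n = 4).

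VWF, a blood clotting glycoprotein, and TF, the iron carrier transferrin, are plasma proteins like APOB. VWF had a difference of -0.25 (95% interval -0.55 to 0.05) and TF one of -0.18 (-0.42 to 0.07). VWF was 2.79, 2.67 and 2.80 in HI-3, HI-4 and HI-5, inside the span of good HI eggs, 2.58 to 3.38. The intervals of both reached past 0.

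DUSP24, a member of the dual-specificity phosphatase family, had a similar difference in both ovulation groups. DUSP24 gave a weak signal, below the median clone on all 14 arrays, and was not in the alternative limited to clones with a mean log2 signal at or above 0. Its log2 signal was -2.36, -2.09 and -2.01 in HI-3, HI-4 and HI-5, and -1.59, -2.16, -1.63, -1.78 and -1.99 in good HI eggs. It was -1.96 in PM-8 and -2.18 in PM-9, and -1.89, -1.89, -1.22 and -1.39 in good PM eggs. HI-8 alone among good females reached into the late loss values of its ovulation group. The difference was -0.38 (95% interval -0.66 to -0.11, unadjusted p = 0.00911 by limma), with -0.32 within HI and -0.47 within PM. The joint difference was -0.28 when a pseudocount was added. Early failing eggs, from the 7 HI and PM females with under 50% eyed embryos, had -2.17 ± 0.329 (SD, n = 7), and late loss eggs -2.12 ± 0.156 (SD, n = 5). These pooled means mix the ovulation groups. Early failing eggs had -1.89 within HI (n = 2) and -2.29 within PM (n = 5), against -2.15 and -2.07 in late loss eggs. NEK1, a protein kinase tied to cilia, was the second gene of this kind, with a difference of -0.25 (95% interval -0.52 to 0.01). HI-7 and HI-8 were lower than all 3 late loss HI females in NEK1, at -0.03 and -0.07.

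DAB2, an endocytic adaptor that links lipoprotein receptors to clathrin, also takes part in growth factor signalling. HI-4 and HI-5 stood at 2.00 and 2.16, while good HI eggs lay between 1.496 and 1.99. PM-8 and PM-9 stood at 2.40 and 2.49, while good PM eggs lay between 1.88 and 2.28. All 4 late loss values were above the good values of their group, as in 5 clones (0.0602%) over the array, DAB2 included. However, the array of HI-3 listed DAB2 at 0 and gave no value. With a late loss HI value missing, such a separation is easier to reach than in clones with all values, so that share is not a like comparison. The difference was 0.30 (95% interval 0.05 to 0.54, unadjusted p = 0.0224 by limma) without HI-3, and -0.78 when values of 0 were kept with a pseudocount. Only 2 of 4 N arrays gave a value, 1.72 and 1.86, and early failing eggs stood at 2.28 ± 0.355 (SD, n = 6). That mean mixes the ovulation groups. Early failing eggs had 1.91 within HI (n = 2) and 2.46 within PM (n = 4), against 2.08 and 2.45 in late loss eggs. TGFBR2, a receptor of transforming growth factor beta, differed by -0.32 (95% interval -0.67 to 0.04), a value that was -0.48 without HI-3 and -0.20 without HI-4. It spread more widely in late loss eggs than the other 3 growth factor signalling clones, from 0.33 in HI-4 to 1.43 in HI-3, both late loss females with many malformed alevins. BMP7, a secreted signal of dorsoventral and skeletal patterning, differed by -0.080 (95% interval -0.32 to 0.16).

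**Figure D4:**
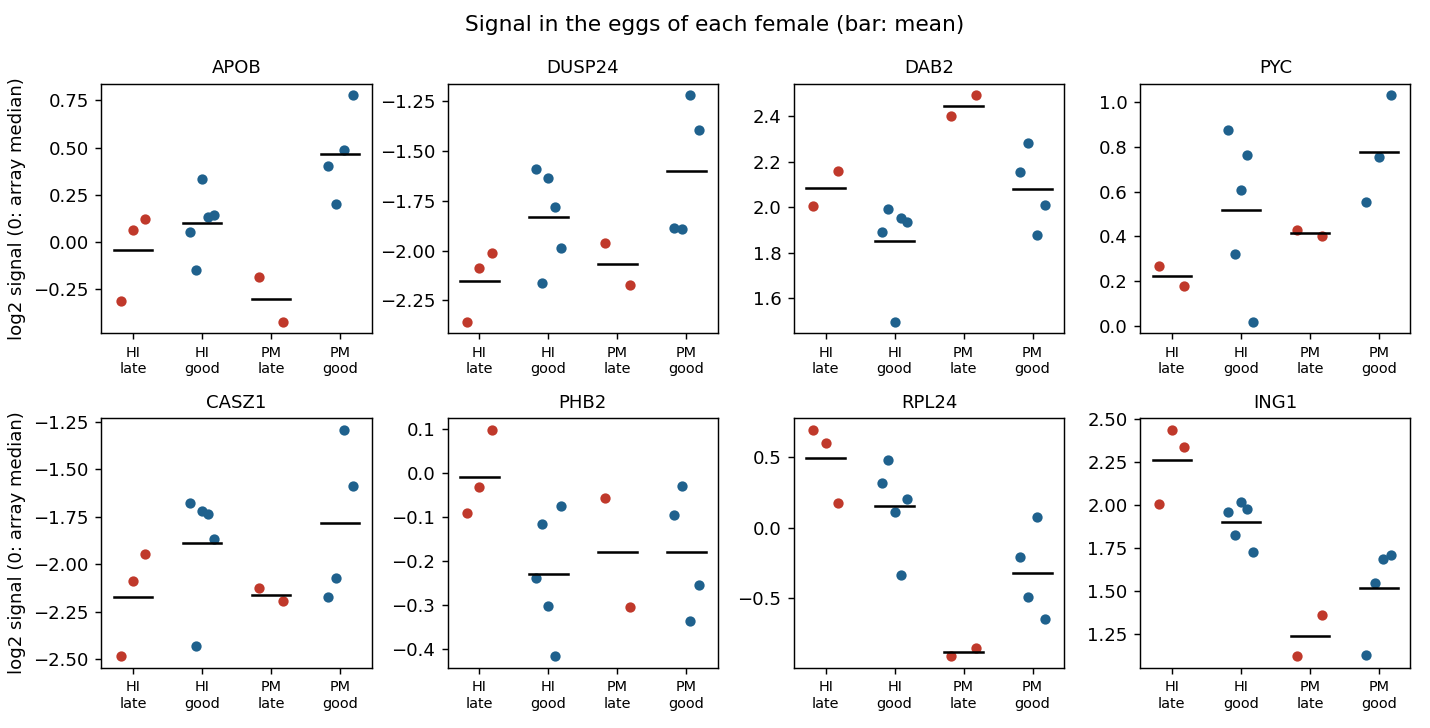
Log2 signal (vertical axis, 0 is the median clone of the array) in the eggs of each late loss (red) and good (blue) female for 8 named clones, by ovulation group; bars are means. APOB lies at -0.18 and -0.42 in late loss PM eggs, below all good PM eggs, as in 8.93% of all clones. DAB2 lies above the good eggs of the same ovulation group in the late loss females with a value, and HI-3 gave none. The late loss mean of RPL24 lies above the good mean in HI and below it in PM.

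Genes of the mitochondrion gave 1 lower and 2 higher estimates. PYC, pyruvate carboxylase, which feeds the citric acid cycle and gluconeogenesis, stood at 0.27 in HI-3 and 0.18 in HI-5, and at 0.43 in PM-8 and 0.40 in PM-9. Good HI eggs ran from 0.02 to 0.88 and good PM eggs from 0.55 to 1.03, and HI-4 and PM-14 had no value. The difference was -0.33 (95% interval -0.64 to -0.01, unadjusted p = 0.0416 by limma), and -0.58 with an unadjusted p of 0.456 when values of 0 were kept with a pseudocount. PHB2, prohibitin 2, an inner membrane scaffold that also acts as a corepressor, went the other way among quality genes. PHB2 is also the quality gene whose negative correlation with normal alevins the paper found by real-time PCR. It was -0.09, -0.03 and 0.10 in HI-3, HI-4 and HI-5, against -0.24, -0.12, -0.30, -0.42 and -0.08 in good HI eggs, and -0.06 and -0.30 in PM-8 and PM-9 against -0.10, -0.03, -0.34 and -0.25 in good PM eggs. Its difference was 0.22 within HI and -0.0012 within PM, and 0.13 jointly (95% interval -0.09 to 0.34, unadjusted p = 0.227 by limma). Early failing eggs had 0.05 ± 0.127 (SD, n = 7), above the good eggs at -0.21 ± 0.133 (SD, n = 9), with late loss eggs between them at -0.08 ± 0.146 (SD, n = 5). This order is one of pooled means. Early failing eggs had -0.04 within HI and 0.08 within PM, against -0.0085 and -0.18 in late loss eggs. Late loss and early failing eggs differed by -0.13 in PHB2 (unadjusted p = 0.278 by limma). HSPA9B, the mitochondrial chaperone mortalin, differed by 0.086 (95% interval -0.18 to 0.35), and by 0.0064 without HI-5 or 0.17 without HI-4.

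Of 7 transcription regulators 6 had estimates below 0 and 1 above, none past the test, where 49.9% of all clones lay below 0. Those 6 came from the quality list, of which 27 of 29 clones were lower. That list was drawn from these arrays, so the count is no evidence about the role. CASZ1, a zinc finger factor of heart and neural development, had the lowest p, with a difference of -0.32 (95% interval -0.64 to -0.004). Late loss eggs lay between -2.49 and -1.95, and good eggs between -2.43 and -1.29, so that the groups overlapped in both HI and PM. GTF2B, a general factor of RNA polymerase II initiation, differed by -0.21 (95% interval -0.45 to 0.04), and TLE1, a Groucho corepressor, by -0.067. TLE1 was the most even of them, at 1.55 ± 0.0362 (SD, n = 5) in late loss eggs. The gene with the higher estimate was ING1, a chromatin-binding tumour suppressor, described with RPL24.

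The remaining groups of roles held small differences. In RNA processing, RBM5, a splicing regulator, differed by 0.21 (95% interval -0.04 to 0.46), with 2.82 in both HI-4 and HI-5 above the good HI eggs (2.20 to 2.51), while HI-3 lay among them at 2.33. RPN2, a subunit of the enzyme that attaches glycans in the endoplasmic reticulum, had the same arrangement, with 4.01 and 4.12 in HI-4 and HI-5 and 3.40 in HI-3, and differed by 0.21 (95% interval -0.08 to 0.49). AGM1, an enzyme of amino sugar synthesis, differed by -0.19 (-0.085 without HI-4), and DCPS, which clears mRNA cap remnants, by -0.17 (-0.11 without PM-12). CUL5, a ubiquitin ligase scaffold, had a difference of -0.22 (95% interval -0.45 to 0.004). Both of its late loss PM values, -0.67 and -0.58, lay below the good PM eggs, as in 8.93% of all clones. PDCL3, a chaperone cofactor, differed by -0.12. The 4 adhesion and matrix genes had estimates from -0.25 to -0.038, none at the unadjusted limit, where 49.9% of all clones lay below 0. All but PKP1 came from the quality list, of which 27 of 29 clones were lower, so their direction is no evidence about the role. Among them LAMB2, a basement membrane laminin, differed by -0.23 (95% interval -0.51 to 0.04) and PKP1, a desmosome protein, by -0.14. RAB3IP, an activator of membrane-traffic GTPases, differed by -0.18, KHK, the fructose kinase, by -0.16 and the uncharacterised CF188 by -0.11. The estimate for KHK was -0.31 within HI (unadjusted p = 0.0335 by limma, under 0.05 as in 2.99% of all clones) and 0.037 within PM. The difference between these effects, -0.34, had an unadjusted p of 0.114 by limma. GMCL1, a homologue of the Drosophila germ cell-less gene, was 0.14 higher (95% interval -0.08 to 0.36).

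The ribosomal protein genes had joint estimates near 0 whose sign changed when single females were left out. RL10 differed by 0.051 (95% interval -0.32 to 0.42) and RPL24 by -0.037 (-0.40 to 0.32). Both genes had estimates above 0 within HI and below 0 within PM, further apart in RPL24. RPL24, a protein of the large subunit, stood at 0.70, 0.60 and 0.18 in HI-3, HI-4 and HI-5 against 0.32, 0.48, 0.11, -0.34 and 0.20 in good HI eggs. It stood at -0.91 and -0.85 in PM-8 and PM-9 against -0.21, -0.49, 0.08 and -0.65 in good PM eggs. Late loss eggs thus tended high within HI, with overlap, and lay below all good eggs within PM, as in 8.93% of all clones. The effects were 0.34 and -0.56, and their difference of 0.90 had an unadjusted p of 0.00604 (adjusted p = 0.386 by limma). ING1 was alike: 2.01, 2.44 and 2.34 in HI-3, HI-4 and HI-5 against 1.73 to 2.02 in good HI eggs, and 1.12 and 1.36 in PM-8 and PM-9 against 1.12 to 1.71 in good PM eggs. Its effects were 0.36 within HI and -0.28 within PM, with a difference of 0.64 (unadjusted p = 0.0153, adjusted p = 0.465 by limma). RPL24 and ING1 were chosen as the named clones of lowest p for this difference. Of all clones 8.85% had an unadjusted limma p under 0.05 for it.

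No clone passed the test for a difference between the HI and the PM effect, and the estimates of the effects ran in opposed directions somewhat more often than not. For the difference between the HI and the PM effect 0 of 8308 clones (0%) passed the adjusted test, with a lowest adjusted p of 0.0817, and 735 (8.85%) had an unadjusted limma p under 0.05, where 415 would be expected if no clone differed. Over clones the effect within HI and the effect within PM, which share no array, correlated at r = -0.20 (Spearman's rho = -0.21, n = 8308 clones, which are not independent), and 41.8% of clones had the same sign in both. The spread of effects was larger in PM (SD 0.252) than in HI (SD 0.165). More females entered in HI, and the median SE of a clone was 0.191 in PM and 0.162 in HI. The cause of the wider spread in PM was not tested. In 37 clones (0.445%) late loss values lay outside the good values in opposite directions in HI and PM, against 7 clones in a common direction. The limma counts for the difference between the effects depended on which female was left out. The correlation, the shared signs and the counts of 37 and 7 clones were not recomputed with a female left out. HI-4 had the largest median absolute deviation from the good arrays among late loss females, though not the lowest correlation with them. Without HI-4, 438 clones reached an unadjusted limma p under 0.05 and 0 passed. Leaving out any other HI female gave 639 to 901 clones at that limit. Without HI-5, 901 reached that limit and 7 passed after adjustment. Without PM-9 3 clones passed.

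**Figure D5:**
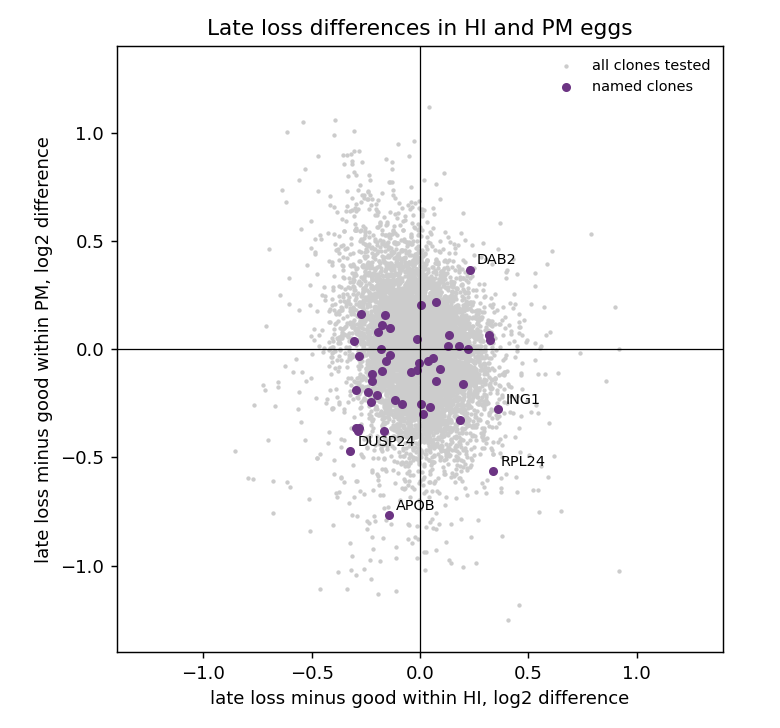
Late loss minus good eggs as a difference of log2 signal within HI (horizontal axis) and within PM (vertical axis) for all 8308 clones tested (grey) and the 49 named clones (purple). RPL24 and ING1 lie at 0.34 and 0.36 on the HI axis and at -0.56 and -0.28 on the PM axis.

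Late loss eggs were also set against the eggs of the 7 early failing females (2 HI, 5 PM), which shares the late loss arrays with the comparison above. Of 8176 clones tested 0 (0%) passed the adjusted limma test, and 223 (2.73%) had an unadjusted p under 0.05. Among 47 named clones with enough values 25 were higher in late loss than in early failing eggs, against 51.2% over all clones, and the quality genes had a median difference of 0.0126. OSBPL5 was 0.39 lower in late loss eggs (unadjusted p = 0.033 by limma), at -0.20 ± 0.71 (SD, n = 5) against -0.07 ± 0.338 (SD, n = 7) in early failing eggs, the fitted difference being taken within ovulation groups. The means were alike within HI, 0.285 in late loss and 0.281 in early failing eggs. The gap lay within PM, at -0.94 (n = 2) against -0.21 (n = 5). GMCL1 had -0.25 (unadjusted p = 0.0699 by limma), and APOB -0.20 (unadjusted p = 0.238 by limma). The APOB gap lay within HI, at -0.04 in late loss (n = 3) against 0.51 in early failing eggs (n = 2). Within PM late loss eggs were slightly the higher, at -0.30 (n = 2) against -0.39 (n = 5). PM-6, PM-7 and PM-10, of neither class, were also low in APOB, at -0.36, -0.42 and -0.24.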

How the data were processed

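RNA of unfertilized eggs was hybridized to nylon arrays of spotted cDNA clones. Per the study's methods, the authors scaled every spot by a hybridization that reads its DNA content, left out poorly spotted clones and divided by the array median; the deposited intensity values are 1 value per clone and array. Tools and versions for these steps are not given in the sources used here. No counts exist, so precision was limited by the number of arrays. Values above 0 were taken as log2 (6.48% of values were 0 and left out), and 9023 clones were kept, 193 other entries of the table being left out. Clones with at least 10 of 14 values and 2 per class in each ovulation group (8308) were fitted with limma 3.58.1 in R 4.3.3, with Benjamini-Hochberg adjustment over all clones and a threshold of 0.05. Late loss minus good was fitted with ovulation group as a covariate, then as separate effects in HI and PM in 1 fit over 14 arrays, with their difference. The members and lists were chosen with earlier results of these data known. Gene names came from the study's lists; some clones of those lists are not reported here. The genes described were, for each role, those with the lowest p or a known role in eggs, and the named clones with the lowest p for the difference between HI and PM. The unnamed clones described were those of lowest p in each direction with the same sign within HI and within PM. Fits were tested on simulated data. The study's own test, Significance Analysis of Microarrays, was not run. Alternatives covered normalization, filters, the class limits, array weights and leaving out each female.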

Additional observations from a re-analysis of the deposited data

Results flagged for a closer look

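Single females stood apart from the others of their class in 3 of 67 groups of values tested, about the 3.4 that chance gives. DAB2 was 1.496 in HI-9, a good female, against 1.89 in the next lowest good HI female. CASZ1 was -2.43 in HI-8 against -1.87 in the next lowest good HI female. GMCL1 was -0.48 in PM-14 against -0.09 in the next lowest good PM female.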

How the results depend on the processing

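Late loss minus good called 0 clones under all 16 alternatives and all 14 fits that left out 1 female, with 125 to 581 clones at an unadjusted limma p under 0.05. Within PM, 5 clones passed with the spread of each array (its interquartile range) added as a covariate, 2 among clones with a mean log2 signal at or above 0 and 2 in a fit of all 28 arrays. Within HI, 1 passed without the filter on missing values, and 2 without the late loss females over 40% malformed, which leaves 1 late loss HI female. The difference between the HI and PM effects gave 3 clones with the interquartile range covariate, 1 without the filter, 3 among clones at or above 0, 7 with eyed embryos at or above 80% (which leaves out HI-5) and 1 without the females over 40% malformed. Leaving out 1 female at a time gave 0 to 0 clones within HI, 0 to 5 within PM and 0 to 7 for the difference. Late loss minus early failing eggs called 0 in all alternatives, PM-4 left out included, and the interquartile range difference ran from 0.0132 to 0.0483. The cause of these changes was not tested.

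Replicate numbers rank females by egg quality and pair nothing: deviations of same-numbered females correlated at -0.132, -0.0823 and -0.0364. With the number as a replicate block 0 clones were called (208 at an unadjusted limma p under 0.05), and the separate effects also gave 0.

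Among the named clones described in the text, signs changed for 7. DAB2 became -0.78 with values of 0 kept, HI-3 being listed at 0 for this clone. RL10 became -0.043 with the interquartile range covariate, -0.0055 with array weights, -0.16 with good eggs limited to 90% or more normal alevins and -0.11 without the females over 40% malformed. APOC1 became -0.015 with the covariate, -0.042 with weights and -0.21 without those females. OSBPL5 became 0.012 without the ovulation covariate and 0.087 with the 90% limit, RPL24 0.018 with the 90% limit, and ING1 -0.0018 without the females over 40% malformed. With 1 female left out, RL10 ran from -0.018 to 0.14, RPL24 from -0.15 to 0.077, APOC1 from -0.17 to 0.15, OSBPL5 from -0.16 to 0.060 and PGH2 from -0.097 to 0.036. Estimates that moved by over 1.5 times without a sign change when 1 female was left out were TGFBR2 (-0.48 to -0.20), RPN2 (0.12 without HI-5), AGM1 (-0.085 without HI-4), DCPS (-0.11 without PM-12), GMCL1 (0.090 without PM-14), PDCL3 (-0.19 to -0.075), ING1 (0.0065 to 0.21), BMP7 (-0.15 to -0.026), HSPA9B (0.0064 to 0.17), LYPA3 (-0.025 without PM-9) and CF188 (-0.049 without HI-5). Few late loss females, 2 in PM, limit every estimate.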
